A study of Mus musculus with 12 samples.

Results

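AMPA receptors are the ion channels that carry most fast excitatory glutamate transmission in the brain, and 10 genes that encode their pore-forming subunits and auxiliary proteins were followed here in the striatum of TAAR5-KO and wild-type (WT) mice. The genes were chosen by name: Gria1, Gria2, Gria3 and Gria4 for the pore, Cacng2, Cacng3 and Cacng8 for the transmembrane AMPA receptor regulatory proteins (TARPs), Cnih2 and Cnih3 for the cornichon proteins, and Gsg1l. They are 10 of the 57132 features in the count table, and all 10 passed the filter on low counts that left 13902 features for testing. Bulk RNA of the striatum, taken from a coronal slice after removal of the cortex, came from 6 mice labelled TAAR5-KO, which lack trace amine-associated receptor 5, and 6 labelled WT. All were C57Bl/6 littermates aged 10 months, and the labels name no treatment. The study used animals of both sexes in each group, but the columns of counts carry a genotype and a library number (NK1 to NK6 for TAAR5-KO, NK7 to NK12 for WT) that is not tied to an animal or a sex. Genotype comparisons therefore rest on 6 libraries against 6, and p-values set the difference between labels against the variation between libraries.

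An AMPA receptor is a tetramer of GluA1 to GluA4, the products of Gria1 to Gria4, and the mixture of subunits sets its conductance and calcium permeability. TARPs, cornichons and GSG1L bind the tetramer, control its delivery to the synapse and change how long the channel stays open. In the striatum these receptors sit mainly on medium spiny neurons (MSN), which receive glutamate from the cortex and thalamus and dopamine from the midbrain.

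Total counts ran from 11269915 to 34824450 per library, but 64.3 to 88.1% of them fell on ribosomal RNA, so that 1819907 to 6399188 counts per library informed all other genes. The share of ribosomal RNA was over 85% in 5 libraries, namely NK1, NK2 and NK3 (TAAR5-KO) and NK9 and NK10 (WT). Levels are given as CPM, the counts of a gene relative to a fixed total, on library sizes scaled by TMM, whose factors ran from 0.375 to 2.46, and a count of 0 would allow up to 3 counts, or 0.0678 to 0.361 CPM. This floor covers counting error only, while the 95% intervals of log2 fold changes come from the fitted model and include the spread between libraries. Taar5 itself was counted at 1 to 6 in the libraries labelled TAAR5-KO and at 0 to 2 in those labelled WT. Of the latter, 4 of 6 had none. A two-sided exact permutation test of its CPM, not of the counts, gave p = 0.00649. The higher counts thus lay in the libraries labelled TAAR5-KO. Which bases of Taar5 the knockout allele keeps is not given in the sources used here, so these few counts do not settle the labels, and every direction below is that of the libraries as labelled. MSN markers summed to 197 to 418 CPM in the 12 libraries, and all 8 cortical pyramidal markers were also detected, at a sum of 31.5 to 116 CPM.

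The site that gives Gria2 its place among the pore-forming genes is the Q/R site in the channel pore, where the enzyme ADARB1 edits the Gria2 transcript so that arginine replaces the genomic glutamine and calcium permeability falls. Counts per gene do not tell edited from unedited transcripts, so the genomic windows below show only where the subunits are alike and how far their reads can be separated. Each window holds 54 bases of 1 exon, 5′ to 3′ on the coding strand, from the GRCm39 genome with GENCODE M39 transcripts, and the capitals mark the glutamine codon of the Q/R site.
Gria1: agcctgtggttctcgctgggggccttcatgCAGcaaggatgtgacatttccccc
Gria2: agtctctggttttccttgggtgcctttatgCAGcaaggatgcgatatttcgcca
Gria3: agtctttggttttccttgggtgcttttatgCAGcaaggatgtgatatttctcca
Gria4: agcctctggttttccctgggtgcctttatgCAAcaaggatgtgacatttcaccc
The windows lie at chr11:57133890-57133943 on the + strand for Gria1 (exon 11 of 15, codon 600), at chr3:80614197-80614250 on the - strand for Gria2 (exon 11 of 16, codon 607), at chrX:40699112-40699165 on the + strand for Gria3 (exon 11 of 14, codon 612) and at chr9:4464116-4464169 on the - strand for Gria4 (exon 12 of 17, codon 608), with codons counted from the start codon. Gria2 and Gria3 differed at 4 of the 54 positions, Gria1 and Gria4 at 7, and Gria1 and Gria2 at 11. Over whole transcripts the longest exact stretch shared by a pair of pore-forming genes was 59 bases (Gria3 and Gria4), and the longest among all pairs of the 10 genes was 72 bases (Gria2 and Cacng3), both shorter than the reads of 100 bases.

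Transcripts of all 10 genes were found in every library. Ordered by their mean level over the 12 libraries in CPM per kilobase of merged exons, Gria1 stood at 7.91, Gria2 at 5.76, Cnih2 at 5.56, Cacng3 at 3.19, Gria3 at 3.09, Gria4 at 2.43, Cacng2 at 1.91, Gsg1l at 1.65, Cacng8 at 1.14 and Cnih3 at 1.00. The ranges over libraries overlapped for every pair of neighbours in this order. Within libraries, Gria1 exceeded Gria2, Cnih2 exceeded Cacng3 and Gria4 exceeded Cacng2 in 12 of 12, Gria3 exceeded Gria4 in 11, Gsg1l exceeded Cacng8 in 10 and Cacng2 exceeded Gsg1l in 9. Gria2 was above Cnih2, Cacng3 above Gria3 and Cacng8 above Cnih3 in 7 of 12 libraries each. The order depends on the length used, because the merged exons of Gria2 span 15548 bases while its longest transcript has 10767. Per kilobase of the longest transcript, Gria2 came first at 8.31, Gria1 followed at 7.77 and Gria3 came next at 5.14.

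**Figure D1:**
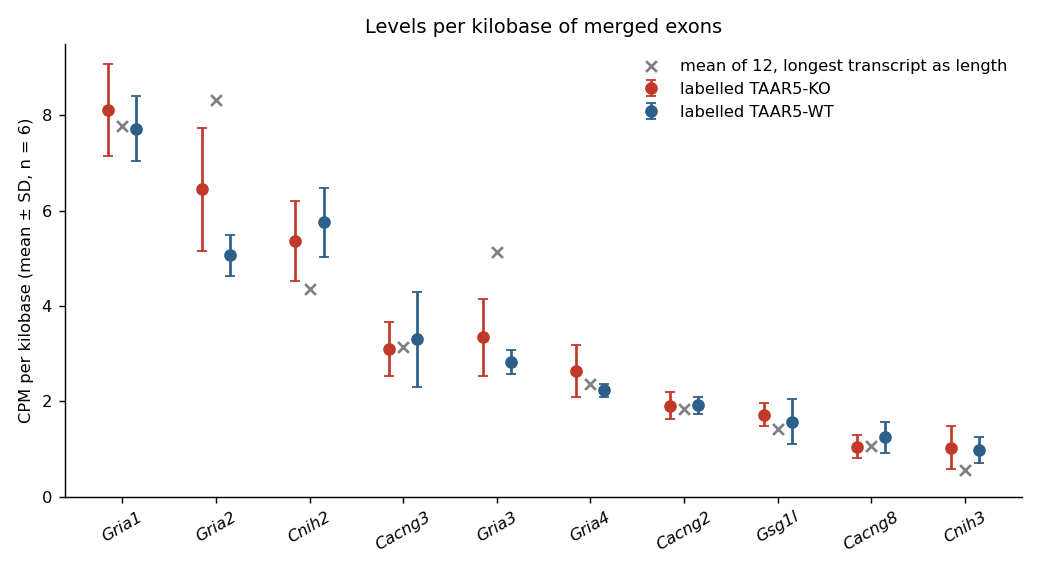
Level of the 10 genes in CPM per kilobase of merged exons as mean and SD of the 6 libraries of each label, in order of the mean over 12 libraries, with crosses for the mean of 12 per kilobase of the longest transcript. Gria1 (mean 7.91) stood highest and Cnih3 (mean 1.00) lowest by merged exons, and the cross of Gria2 (8.31) was the highest of the crosses.

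None of the 10 genes passed an adjusted p of 0.1 between genotypes in the likelihood ratio test of edgeR, against 229 of the 13902 features tested (1.65%), and none passed in its quasi-likelihood test (0.453% of all features) or in DESeq2 (1.27%). At an unadjusted p under 0.05 there was 1 of 10, Gria2, against 11.9% of all features. The log2 fold change (TAAR5-KO minus WT) was above 0 for 6 of 10 genes, beside 48.9% of all features, and below 0 for 4, with a median of 0.05 beside -0.006 for all features. No gene separated the genotypes completely, as 1.01% of all features did. Gria2, Gria3 and Gria4 had the highest log2 fold changes in the set and Cacng8, Cnih2 and Cacng3 the lowest.

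**Figure D2:**
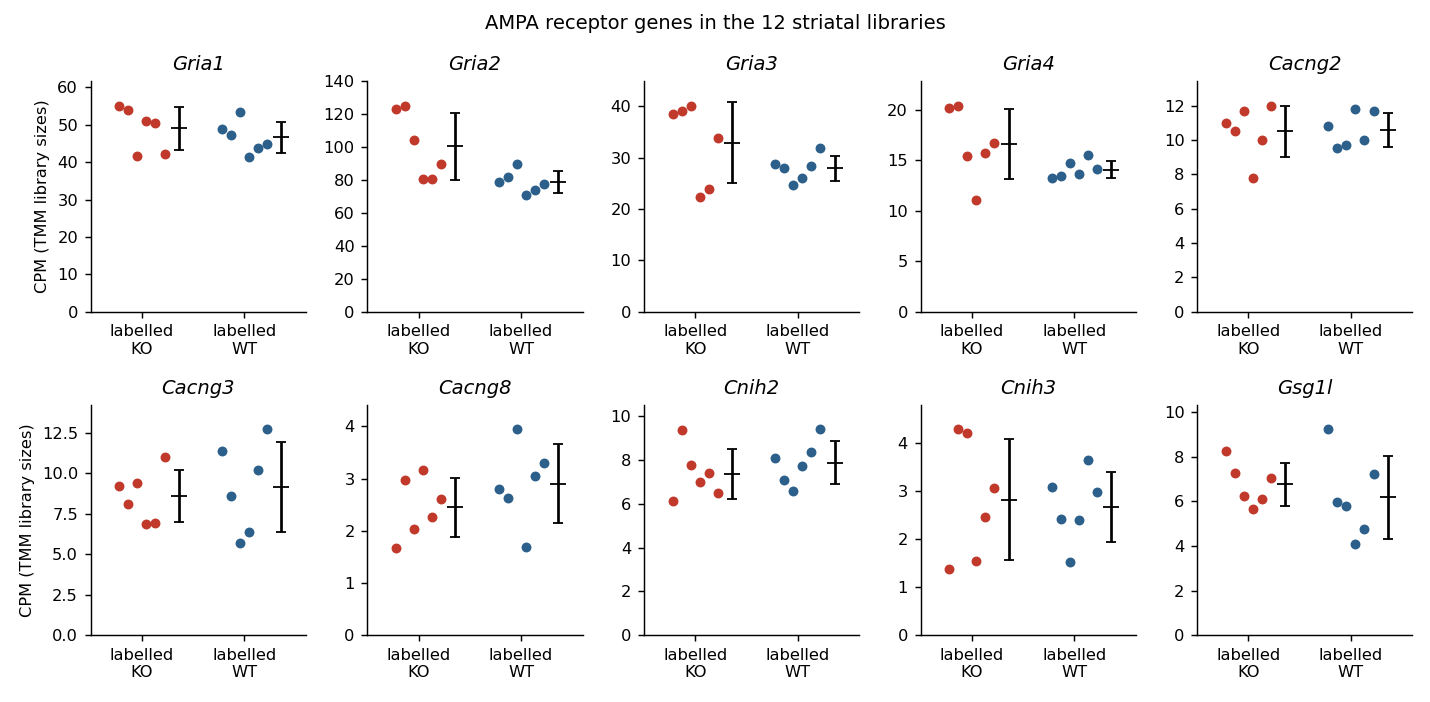
CPM on TMM library sizes (each panel with its own axis from 0) of the 10 genes in each of the 6 libraries labelled TAAR5-KO and 6 labelled WT, with the group mean and SD. The points of both labels overlapped for every gene, and 3 libraries labelled TAAR5-KO stood above all 6 labelled WT for Gria2.

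Gria2 encodes GluA2, the subunit that keeps most AMPA receptors impermeable to calcium (gene at chr3:80588757-80710142, - strand). Its level was 123, 125, 104, 80.5, 80.5 and 89.5 CPM in NK1 to NK6, labelled TAAR5-KO, and 78.6, 81.9, 89.6, 70.8, 73.6 and 77.7 CPM in NK7 to NK12, labelled WT. The libraries labelled TAAR5-KO thus fell into NK1, NK2 and NK3 above every WT library and NK4, NK5 and NK6 within the WT range, although all 6 exceeded the WT mean. Gria2 averaged 100 ± 20 CPM (SD, n = 6) against 78.7 ± 6.60, a log2 fold change of 0.35 with a standard error of 0.12 and a 95% interval of 0.10 to 0.59. Its adjusted p was 0.164 in the likelihood ratio test of edgeR, and 0.227 in the quasi-likelihood test and 0.106 in DESeq2.
The result for Gria2 passed the threshold when NK4 (0.40, adjusted p = 0.0562) or NK5 (0.41, adjusted p = 0.0729) was left out. It also passed with the cortical pyramidal markers as a covariate (0.34, adjusted p = 0.0835). It moved away from the threshold without NK1 (0.29, adjusted p = 0.419) or NK2 (0.29, adjusted p = 0.39). The same held with the pan-MSN markers as a covariate (0.32, adjusted p = 0.518). Leaving out 1 library gave 0.29 to 0.41, and 10 of these 12 fits did not pass. Within the 5 libraries with over 85% ribosomal RNA (3 labelled TAAR5-KO and 2 WT) the log2 fold change of Gria2 was 0.50 (adjusted p = 0.00607), and within the other 7 (3 and 4) it was 0.10 (adjusted p = 0.868). With each library's trend on GC content removed it was 0.17 (adjusted p = 0.671). With the ribosomal RNA share as a covariate over all 12 libraries the log2 fold change of Gria2 was 0.28 (adjusted p = 0.46, edgeR likelihood ratio test). The split by ribosomal RNA was chosen after the data were seen. The part of ribosomal RNA or GC content in the result was not tested beyond these fits.

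Gria1 encodes GluA1, the subunit most involved in activity-dependent insertion of receptors (chr11:56902213-57221070, + strand). It ran from 41.7 to 55.1 CPM (median 50.7) in the libraries labelled TAAR5-KO and from 41.5 to 53.3 (median 46.1) in those labelled WT. The groups covered almost the same range. The log2 fold change was 0.07 (95% interval -0.12 to 0.27, adjusted p = 0.842, edgeR likelihood ratio test), and the coefficient of variation over the 12 libraries, 10.4%, was the lowest of the 10 genes.

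Gria3 encodes GluA3, which pairs mainly with GluA2 (chrX:40489731-40767478, + strand). The libraries labelled TAAR5-KO held 38.4, 39, 40.1, 22.4, 23.8 and 33.8 CPM in NK1 to NK6, beside 24.6 to 31.8 CPM (median 28.1) in WT. Of the 6 libraries labelled TAAR5-KO, 4 were above all WT libraries and 2, NK4 and NK5, were below all of them. The spread within this label, 32.9 ± 7.91 CPM against 27.9 ± 2.45, covered the difference in means, and the log2 fold change was 0.23 (95% interval -0.04 to 0.50, adjusted p = 0.539, edgeR likelihood ratio test). In the same test it was 0.58 (adjusted p = 0.000267) among libraries with over 85% ribosomal RNA. Among the rest it was -0.12 (standard error 0.15, adjusted p = 0.892), which is within its standard error of 0. The split was chosen after the data were seen and sets NK1, NK2 and NK3 against 2 WT libraries. Its p-values are therefore descriptive only. 

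Gria4 encodes GluA4, a subunit found mainly in interneurons in the adult forebrain (chr9:4417896-4796234, - strand). It ran from 11.1 to 20.4 CPM (median 16.2) in libraries labelled TAAR5-KO and from 13.2 to 15.5 (median 13.8) in WT. Here 4 libraries labelled TAAR5-KO stood above all WT and NK4 stood below all of them. The log2 fold change was 0.23 (95% interval -0.01 to 0.47, adjusted p = 0.44, edgeR likelihood ratio test). Leaving out 1 library gave 0.17 to 0.32, and 11 of these 12 fits did not pass the threshold. The fit without NK4 did (0.32, adjusted p = 0.0657). The summed markers of interneurons differed little between labels (34.9 ± 2.65 against 35.6 ± 2.31 CPM, two-sided exact permutation test, p = 0.619).

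As shares of the summed CPM per kilobase of the pore-forming genes, Gria1 took 39.9 ± 5.35% in libraries labelled TAAR5-KO and 43.2 ± 1.56% in WT, while Gria2 took 31.2 ± 2.20% and 28.3 ± 0.909%. Gria3 held 16.2 ± 2.87% against 15.9 ± 1.70%, and Gria4 12.7 ± 1.49% against 12.5 ± 1.01%. The share of Gria2 was above all WT libraries in 4 of the 6 labelled TAAR5-KO and the share of Gria1 below all WT libraries in 4. These shares use the merged exon length. The ratio of Gria2 to Gria1 per kilobase varied from 0.613 (NK4) to 0.968 (NK3) within TAAR5-KO, with a mean of 0.799 ± 0.148. In WT it kept to 0.624 to 0.674 (0.657 ± 0.0185). The low ratios of 0.613 in NK4 and 0.621 in NK5 lay just under the WT range, and the other 4 lay above it.

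**Figure D3:**
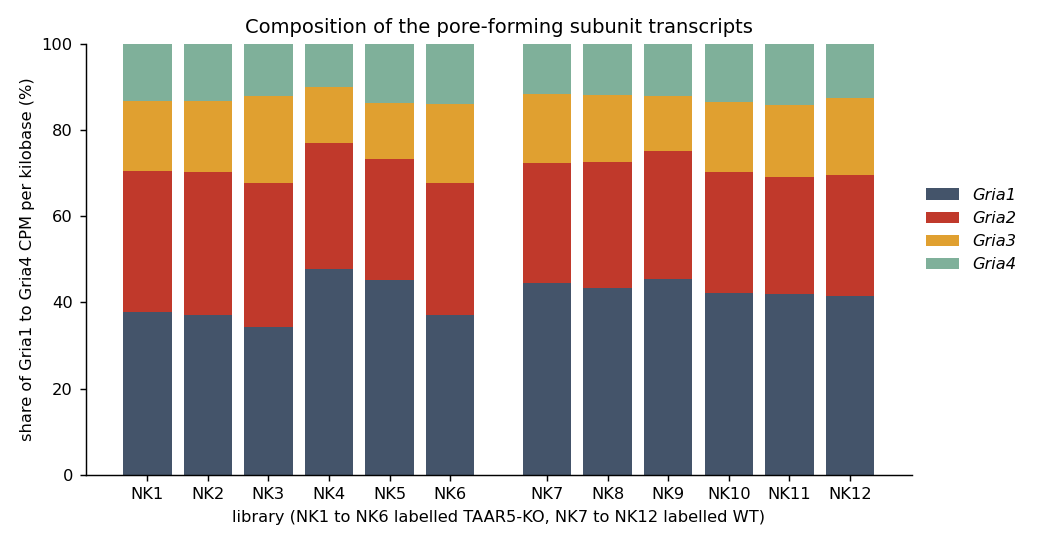
Share in percent of Gria1 to Gria4 in the summed CPM per kilobase of the pore-forming genes, stacked to 100% for each library, with NK1 to NK6 labelled TAAR5-KO and NK7 to NK12 labelled WT. The WT libraries kept to 41.5 to 45.4% for Gria1 while those labelled TAAR5-KO ran from 34.4 to 47.8%.

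Among the TARPs, Cacng2 encodes stargazin (TARP γ-2), the first of these proteins to be described, and Cacng3 and Cacng8 encode TARP γ-3 and γ-8, the last of them abundant in forebrain neurons. Cacng2 ran from 7.81 to 12.0 CPM (median 10.7) in libraries labelled TAAR5-KO and from 9.56 to 11.8 (median 10.4) in WT, with a log2 fold change of -0.01 (95% interval -0.22 to 0.20). Cacng3 ran from 6.88 to 11 CPM (median 8.65) against 5.69 to 12.7 (median 9.38), with -0.12 (-0.46 to 0.22). For both genes the libraries of both labels were intermingled.
Cacng8 had 2.45 ± 0.565 CPM in libraries labelled TAAR5-KO and 2.90 ± 0.750 in WT, and its log2 fold change of -0.25 (95% interval -0.57 to 0.07, adjusted p = 0.583, edgeR likelihood ratio test) was the lowest of the 10 genes. It had 14 to 146 counts per library, with Cnih3 the fewest of the set. Within the TARPs, Cacng3 made up 50.8 ± 3.71% of the summed CPM per kilobase in libraries labelled TAAR5-KO and 50.1 ± 7.69% in WT, Cacng2 31.6 ± 2.71% and 30.5 ± 5.84%, and Cacng8 17.6 ± 5.10% and 19.4 ± 5.79%. The composition thus differed by less than its spread between libraries. By the same edgeR test, Cacng3 was at 0.52 (adjusted p = 0.088) over 85% ribosomal RNA and -0.36 (adjusted p = 0.61) under it. This split was chosen after the data were seen.

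The cornichons assist export of AMPA receptors from the endoplasmic reticulum and slow their closing. Cnih2, the more abundant, ran from 6.13 to 9.37 CPM (median 7.19) in libraries labelled TAAR5-KO and from 6.56 to 9.38 (median 7.90) in WT, with a log2 fold change of -0.13 (95% interval -0.36 to 0.10, adjusted p = 0.713, edgeR likelihood ratio test). Cnih3 ran from 1.38 to 4.29 CPM (median 2.78) against 1.53 to 3.65 (median 2.7), with 0.04 (-0.45 to 0.52, adjusted p = 0.974). Cnih3 was the most variable of the 10 genes, with a coefficient of variation of 35.8% over the 12 libraries, and the interval of its difference does not exclude a change of 0.45 in either direction on the log2 scale. Cnih2 made up 84.5 ± 4.84% of the cornichon level per kilobase in libraries labelled TAAR5-KO and 85.7 ± 2.52% in WT. Gsg1l, whose protein binds AMPA receptors and dampens their current, ran from 5.64 to 8.27 CPM (median 6.64) against 4.09 to 9.22 (median 5.88). Its log2 fold change was 0.09 (95% interval -0.23 to 0.41, adjusted p = 0.88).

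The log2 fold changes of the 10 genes followed the GC content of their exons. Gria2, with the lowest GC content (38.0%), had the highest log2 fold change, and Cacng8, with the highest (62.3%), had the lowest. Across the 10 genes Spearman's rho was -0.85 and Pearson's r -0.91, a description of genes that share all 12 libraries. Over all 13902 features rho was -0.40, and the median log2 fold change was 0.09 for the 4373 features under 45% GC, -0.03 for the 7039 from 45 to 55% and -0.12 for the 2490 above. With the trend removed within each library, the range of the 10 log2 fold changes went from 0.60 to 0.32, and rho to -0.54. No gene of the 10 passed the threshold then.

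**Figure D4:**
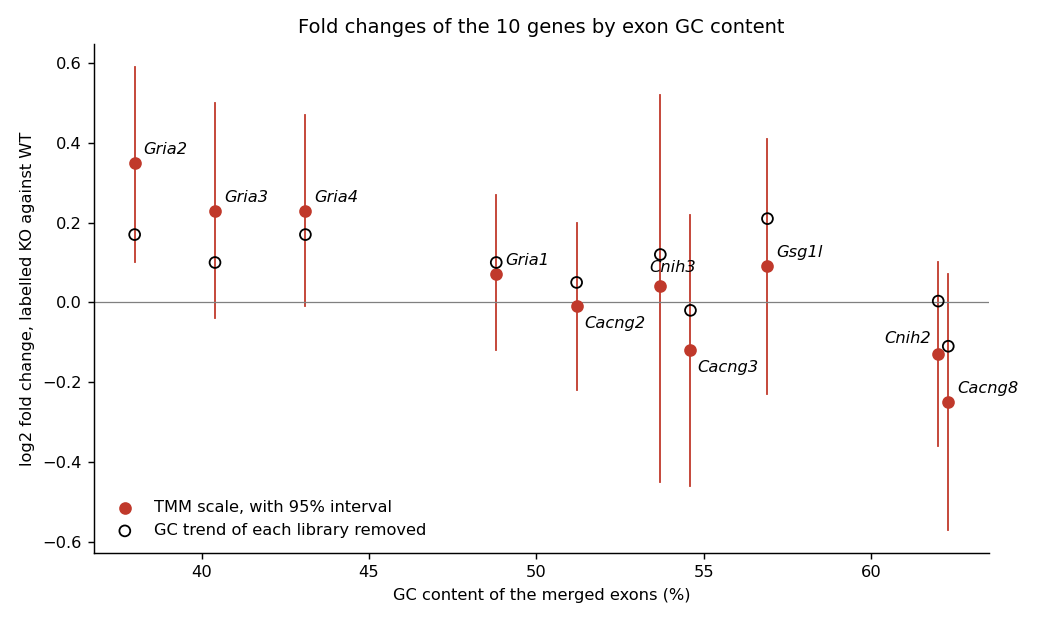
Log2 fold change (TAAR5-KO minus WT) against the GC content of merged exons in percent for the 10 genes, as filled points with 95% intervals, and as open circles with each library's GC trend removed. Gria2 at 38.0% GC lies highest (0.35) and Cacng8 at 62.3% lowest (-0.25) of the filled points, and the open circles span 0.32 instead of 0.60.

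Of 12 lists of cell type markers, those of astrocytes and microglia differed between labels after adjustment over the 12 lists. Summed pan-MSN markers, all 6 with a higher fitted level, came to 371 ± 37.3 CPM in libraries labelled TAAR5-KO and 311 ± 58.8 in WT (two-sided exact permutation test, p = 0.0411, adjusted 0.130). They ran from 315 to 418 CPM and from 197 to 359 CPM, and in WT NK11 held 197 and the next lowest, NK12, 302. D1 MSN markers, 4 of 4 higher, came to 35.5 ± 5.92 and 28.2 ± 7.08 CPM (p = 0.0779 in the same exact test, adjusted 0.187). D2 MSN markers, 3 of 4 higher, came to 109 ± 8.81 and 93.7 ± 17.3 CPM (p = 0.0433 in the same exact test, adjusted 0.130). Astrocyte markers were lower at 133 ± 13.0 CPM against 163 ± 7.72, 6 of 6 genes lower (exact p = 0.00216, the smallest these groups allow, adjusted 0.0259), and microglia markers at 27.2 ± 3.38 against 34.0 ± 2.77 (exact p = 0.00433, adjusted 0.0260). Cortical pyramidal markers differed between libraries of 1 label rather than between labels, at 31.5 (NK4) to 103 CPM in TAAR5-KO and 37.0 to 116 in WT (exact p = 0.937). The libraries NK4 and NK5, low for Gria3, held 31.5 and 41.8 CPM of these cortical markers, and the part of cell composition in the levels of the AMPA receptor genes was not tested beyond the covariates. In bulk RNA, fewer cells of a type and less RNA per cell cannot be told apart.

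The other genes of AMPA receptor biology comprised 38 genes in 5 lists, of which 36 passed the filter. Shisa8 (at most 10 counts in a library) and Prrt2 (at most 1) did not. Exon overlaps with other features were not examined for Shisa8 and Prrt2, so their low counts do not show that the transcripts were absent. Of the 36, none was higher and 1, Cacng7, was lower in TAAR5-KO, as 0.691% of all features were, while 15 had a log2 fold change above 0 and 21 below, with a median of -0.04. At an unadjusted p under 0.05 there were 5, beside 11.9% of all features. 

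Cacng7 encodes TARP γ-7 and lies next to Cacng8 (chr7:3381471-3416737, + strand). It fell to 13.4 ± 1.13 CPM in libraries labelled TAAR5-KO from 17.3 ± 2.15 in WT, with a range of 11.3 to 14.7 (median 13.7) against 14.1 to 19.4 (median 17.9). Of the 6 libraries labelled TAAR5-KO, 5 were below all WT libraries. The log2 fold change was -0.38 with a standard error of 0.096 (95% interval -0.57 to -0.19, adjusted p = 0.0172, edgeR likelihood ratio test). Its neighbour Cacng8, at -0.25, did not pass the test, and the difference between both genes was not tested. Of 29 alternatives, 24 called Cacng7, some of them close to the threshold. Its adjusted p was 0.0943 in the quasi-likelihood test, 0.00971 in DESeq2 and, in the likelihood ratio test, 0.0957 without NK11. Cacng7 was called without any 1 of the 12 libraries, but not with the GC trend removed (-0.27, adjusted p = 0.126), with the pan-MSN markers as a covariate (-0.31, adjusted p = 0.284), without a filter (-0.40, adjusted p = 0.221), on library size alone (-0.87, adjusted p = 0.7) or within libraries with over 85% ribosomal RNA (-0.25, adjusted p = 0.4).

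The other 4 genes under an unadjusted 0.05 in edgeR, named after their values were seen, were Grip2 (-0.59, adjusted p = 0.112), a scaffold that anchors GluA2 and GluA3, Cacng5 (-0.54, adjusted p = 0.263), another TARP, Akap5 (0.30, adjusted p = 0.263), which anchors kinases and phosphatases at the receptor, and Lrrtm4 (0.44, adjusted p = 0.324), a synaptic adhesion protein. None of these passed the test. In each list the gene with the highest level per kilobase also did not. Prrt1, a protein that associates with AMPA receptors, had 14.2 ± 1.17 CPM in libraries labelled TAAR5-KO and 14.9 ± 2.15 in WT (log2 fold change -0.09), and Frrs1l, which takes part in receptor assembly, 59.2 ± 16.2 and 48.6 ± 5.12 (0.28, adjusted p = 0.479). Nsf, an ATPase that binds GluA2, had 53.4 ± 2.29 and 54.8 ± 8.31 CPM (-0.04), Olfm1, a secreted partner, 38.8 ± 11.1 and 42.7 ± 11.2 (-0.14), and Adarb1, the enzyme of the Q/R site, 24.0 ± 3.19 and 25.9 ± 3.27 (-0.11, 95% interval -0.32 to 0.09). By list, 8 other auxiliary subunits had a median log2 fold change of -0.12, 7 genes of assembly and export -0.09, 10 of trafficking and anchoring 0.03, 8 extracellular partners -0.01 and 3 of RNA editing -0.11.

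**Figure D5:**
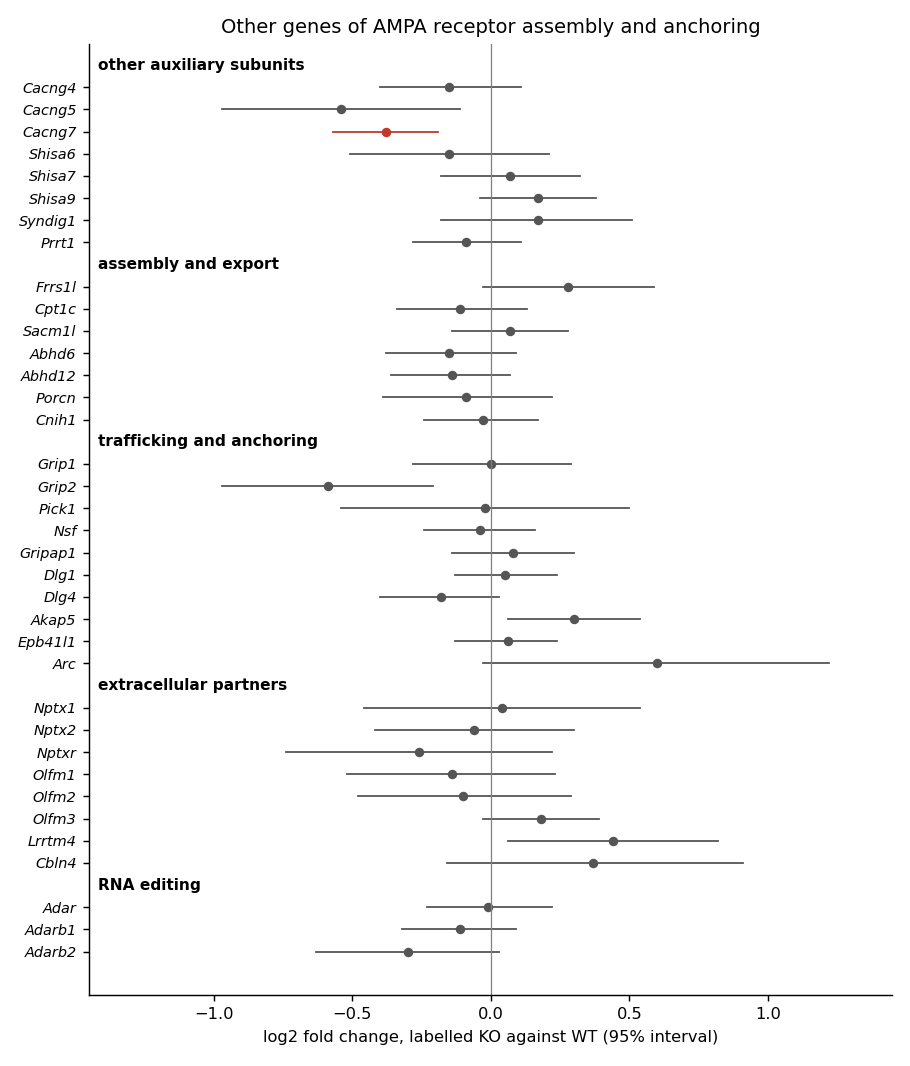
Log2 fold change (TAAR5-KO minus WT) with its 95% interval for the 36 other genes of AMPA receptor biology tested, by list. Points give the fitted value and lines the interval, and Cacng7 (-0.38, in red) is the 1 gene that passed the adjusted p of 0.1.

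Reads that belong to overlapping genes could also touch these values. Of the 10 genes, 6 had an exon that overlapped another feature. The overlap was on the same strand for Gria2 (111 bases with Gm54598), Gria3 (85 bases with Gm54484), Gria4 (19 bases with Gm56143) and Cacng8 (91 bases with Mir935), and those neighbours held 0 or 1 counts in all libraries. If the counting dropped reads that hit more than 1 feature, such low counts could arise either way. They therefore do not show whether these genes lost reads. On the opposite strand lay A730060N03Rik for Cacng2 (323 bases, 104 counts) and Yif1a for Cnih2 (14 bases, 180 counts). Reads from such overlaps cannot be told apart here where the counting did not use strand.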

How the data were processed

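After depletion of ribosomal RNA, striatal RNA of 12 mice was sequenced in directional, single-end libraries with reads of 100 bases. Per the submitters' processing notes and the study's methods, reads were trimmed with Cutadapt 4.1, aligned with STAR 2.7.11b to GRCm39 and counted with featureCounts 2.0.6 on GENCODE M35; the strand and multimapping settings are not given in the sources used here. The authors deposited raw counts per gene, without normalization or pooling, and a gene length, which equalled the merged exon length of all 57132 features. Another 12 columns with counts of single libraries were left aside. The replicates of 1 group differed by more than sampling noise (chi-square per degree of freedom 8.22 to 380 over 30 pairs). These raw counts included ribosomal RNA and were scaled only by their total. Differences in ribosomal RNA share therefore enter the values, which do not measure variation between animals alone.

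Features with at least 0.5 CPM in at least 3 libraries were kept (13902). Genotypes were compared with edgeR 4.0.16 in R 4.3.3 by TMM scaling, estimateDisp, glmFit and glmLRT without covariates, with p-values adjusted over all features by the method of Benjamini and Hochberg and a threshold of 0.1. The likelihood ratio test, the cut-offs of the filter and the threshold follow the study's methods. The filter was applied to library sizes before TMM scaling. This choice, TMM scaling itself, the estimate of dispersion and the lack of covariates were made here. The quasi-likelihood test, DESeq2 1.42.0, other scalings, filters, covariates and lengths, and each library left out, were alternatives. Marker sums and Taar5 were tested by exact permutation of libraries. GC and length trends were removed per library by loess (span 0.5).

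On simulated data with known changes in the 13902 features, the likelihood ratio test found 42.0% of the 81 whose log2 change was 0.5, 76.4% of the 55 with a change of 1 and 98.4% of the 64 with a change of 2, and 16.3% of its 166 calls were false. The quasi-likelihood test gave 145 calls (8.97% false) and found 37.0%, 72.7% and 96.9%. Recovery of log2 changes smaller than 0.5 was not tested, while the fitted values of the 10 genes ran from -0.25 to 0.35. Whether these rates hold for the libraries themselves was not tested. Named were all 10 genes, and in each list of other genes those past the threshold and the one with the highest level per kilobase. The members and lists were chosen with earlier results of these data known.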

Additional observations from a re-analysis of the deposited data

Results flagged for a closer look

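Of 32 groups of 6 libraries examined, 1 held a library far from the others, and chance alone flags about 1 in 20 such groups. Adarb1, the gene of the enzyme that edits the Q/R site of Gria2, had 30.2 CPM in library NK1, labelled TAAR5-KO, while the nearest of the other 5 libraries of this label had 24.3. The gap was 0.678 of the group's whole range. WT libraries reached 31.7 CPM.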

How the results depend on the processing

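No paired analysis was possible because the library numbers NK1 to NK12 in the columns are not tied to the animal numbers of the labels. The limits are those of 6 libraries with few counts outside ribosomal RNA, genotypes taken from labels that the counts of Taar5 do not settle, and a split by ribosomal RNA that leaves 3 libraries against 2.

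The 229 features called became 63 with the quasi-likelihood test, 7 with library size as the only scaling, 93 without a filter, 108 at an adjusted p under 0.05, 87 with the GC trend removed, 98 with the ribosomal RNA share, 615 with the cortical markers and 45 with the pan-MSN markers as a covariate. Leaving out 1 library gave 85 (NK11) to 414 (NK4). The 10 AMPA receptor genes, with 0 called, gave 1 with the cortical markers as a covariate and 0 to 2 when 1 library was left out (2 without NK4, 1 without NK5). Among the other genes of AMPA receptor biology, the 1 call became 0 with library size as the only scaling, without a filter, with the GC trend removed and with the pan-MSN covariate, 4 with the cortical covariate (Cacng5, Cacng7, Grip2 and Arc), and 1 to 3 when 1 library was left out.

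Subsets by ribosomal RNA were added after seeing the data. Over 85%, 640 features, 3 of the 10 genes (Gria2 0.50, Gria3 0.58, Cacng3 0.52) and 8 of the other genes were called, and under 85%, 80 features, 0 of the 10 genes and 1 of the others. The cause of these differences was not tested.

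Library size as the only scaling moved the median of all features to -0.49 on the log2 scale, and no filter moved it to -0.11. Under the former, log2 fold changes turned to -0.44 for Gria1, -0.25 for Gria2, -0.43 for Gria3, -0.30 for Gria4, -0.59 for Cnih3, -0.56 for Gsg1l and -0.39 for Frrs1l, and Cacng7 (-0.87) lost its call. Without a filter Cnih3 turned to -0.0046 and Cacng7 (-0.40, adjusted p = 0.221) lost its call. Other signs also changed. With the GC trend removed Cacng2 was 0.05, Cnih2 0.0032 and Prrt1 0.04, and with the length trend removed Cacng2 was 0.0017. With the ribosomal RNA covariate Cacng2 was 0.02, Cacng3 0.07, Prrt1 0.0014 and Nsf 0.02, with the cortical covariate Cacng2 was 0.0048, and with the pan-MSN covariate Cacng2 was 0.02, Cacng3 0.03, Nsf 0.05 and Olfm1 0.10. Leaving out 1 library gave -0.06 to 0.06 for Cacng2, -0.11 to 0.16 for Cnih3 and -0.08 to 0.03 for Nsf. Over 85% ribosomal RNA, Cnih2 was 0.08, Prrt1 0.03, Nsf 0.15, Frrs1l 0.59 (adjusted p = 5.13e-05) and Olfm1 0.51 (adjusted p = 0.0168), and under 85%, Gria3 was -0.12, Cnih3 -0.30, Gsg1l -0.11 and Frrs1l -0.10. Gria2 was called in 4 of 29 alternatives, with an adjusted p from 0.00607 to 0.868 over them.

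Levels per kilobase became 9.45 for Gria1, 2.34 for Cacng2, 4.23 for Cacng3, 1.43 for Cacng8, 6.91 for Cnih2 and 2.09 for Gsg1l on library size alone. Per kilobase of the longest transcript they became 8.31 for Gria2, 5.14 for Gria3, 4.36 for Cnih2 and 0.549 for Cnih3, and the shares became 33.3% for Gria1, 35% for Gria2, 21.7% for Gria3, 9.97% for Gria4, 89.0% for Cnih2 and 11% for Cnih3.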
